A study of Mus musculus with 6 samples.

Results

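The genes described here encode the machinery that mends broken DNA strands and DNA crosslinks, and they were taken from a list of 42 gene symbols. Members were kept where at least 10 reads fell on them over the 6 libraries, and all 42 of 42 were kept, out of 19452 genes tested and 54532 genes listed. Poly(A)+ RNA had been sequenced from mouse 3T3 fibroblasts, an established line that carries a Flp-In site in this study. The 3 SAFB KD libraries came from cells given siRNAs against Safb, Safb2 and Sltm together, and the 3 control libraries from cells given the control treatment. Cells were transfected at seeding, transfected again a day later and harvested on the third day. The 3 target genes encode the SAFB family of nuclear RNA-binding proteins, so a change cannot be assigned to any single one of them. The series text calls the replicates biological, but nothing states that they came from separate cultures, so P values measure the spread between these libraries.

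A double-strand break can be resealed directly by end joining, in which Ku proteins hold the ends and a ligase complex closes them. It can also be repaired by homologous recombination, in which the ends are resected, BRCA proteins act on the resected DNA, and the intact sister chromatid serves as template. The Fanconi anaemia proteins detect crosslinks between DNA strands and mark the FANCD2 and FANCI pair with ubiquitin, which hands the lesion to nucleases and to recombination. In dividing fibroblasts many of these genes are transcribed most strongly in S and G2 phase.

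All 3 siRNA targets were lower in SAFB KD. Safb reached 48.5, 46.8 and 44.5 CPM (counts per 1e6 reads after TMM scaling) in SAFB KD, against 90.2, 94.8 and 96.1 CPM in control, a log2 fold change of -1.01 (SE 0.040, adjusted p = 6.56e-23, edgeR). Safb2 averaged 30.01 ± 0.312 CPM in SAFB KD and 46.9 ± 1.79 CPM in control, and Sltm 61.6 ± 0.515 CPM in SAFB KD and 100.2 ± 4.81 CPM in control (SD, n = 3 each). The sense strands of the 3 siRNAs are shown because they define the SAFB KD group, with the 19 bases that lie in the target transcript in capitals and the overhang in lower case.
siRNA against Safb: GGAUGACCGUUACCACUCAtt
siRNA against Safb2: UGCUUUUGAUGACAGUAAAtt
siRNA against Sltm, designed on the human gene: GCAUUAGAAUAAUUCGUGAtt
All 19 capital bases were found only in transcripts of the intended gene in the GENCODE annotation of GRCm38, and in 0 of the 42 repair genes. Partial matches were not searched.

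The libraries held 33323307 to 53441129 counts, of which the 42 repair genes took 60469 to 89942. Their share was 0.167% to 0.170% in SAFB KD and 0.183% to 0.184% in control, so the summed share did not overlap between groups. In a principal component analysis, component 1 took up 85.0% of all variance and kept both groups apart, and on component 2 (5.2%) the most distant libraries were control 3 at -8.2 and control 1 at 7.3. All 11 fibroblast markers were detected, with summed levels of 18060 to 18570 CPM in SAFB KD and 19320 to 21210 CPM in control, and 7 of the 11 were called lower. Epithelial, endothelial and blood cell markers summed to at most 10.4 CPM in any library, with Epcam, Krt18, Krt5, Cldn4 and Kdr at 0. Neural markers summed to 19.5 to 21.4 CPM in SAFB KD and 28.3 to 31.1 CPM in control, with Rbfox3 and Sox10 at 0.

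The comparison asked how the poly(A)+ RNA of each repair gene changed after partial knockdown of the SAFB family. More repair genes were lower than higher in SAFB KD, by small amounts. Of 42 members, 24 were called at an adjusted p under 0.05 (57.1%, beside 41.5% of all tested genes). Of these, 17 were lower (40.5% of members, beside 20.1%) and 7 were higher (16.7%, beside 21.4%). All members are protein-coding genes. Among the 13506 tested protein-coding genes 25.7% were lower, 27.6% were higher and 6302 were not called. The lower members included Brca1, Brca2, Rad51b and the Fanconi core genes Fanca, Fancl and Fancm, while the core gene Fancb was higher. The higher members included the end-joining genes Xrcc6 and Lig4, while the end-joining genes Xrcc5, Xrcc4 and Polq were lower. In bulk RNA of this kind, fewer cells that express a gene and less RNA per cell cannot be told apart.

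The changes were small for most members. The median log2 fold change over the 42 members was -0.04, beside 0.01 over all tested genes. Among called genes the median fold was 1.16 for repair genes and 1.25 for all genes. Only Brca2, Rad51b and Brca1 were called with a fold above 1.5, and all 3 were lower. Tested against a fold of 2, 0 of 42 members were called in either direction with edgeR glmTreat, beside 0.524% of genes lower and 0.699% higher, and DESeq2 and limma also called 0. Brca2 came closest, with an unadjusted p of 0.00149 and an adjusted p of 0.105 in that test, and it was the only member under 0.05 before adjustment. It was called beyond 2-fold when counts were scaled by library size alone, and when control 3 was left out.

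The SAFB KD and control libraries did not overlap for 25 of 42 members (59.5%, beside 49.0% of all tested genes). SAFB KD lay below control for 19 of the 42 members, beside 23.7% of all tested genes, and above control for 6, beside 25.3%. Among the 13506 tested protein-coding genes the groups overlapped for 5407, with SAFB KD below control for 3921 and above control for 4178. The share without overlap was thus no higher among the members than among protein-coding genes. With 3 libraries against 3, an exact two-sided permutation test cannot go below p = 0.10 for a single gene, which all 25 reached. Between 4 and 7 members were called higher and between 12 and 18 lower over the alternative settings, and scaling by library size alone gave 4 higher and 18 lower. Leaving out control 1 also gave 4 higher, and leaving out SAFB KD 2 gave 12 lower.

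**Figure D1:**
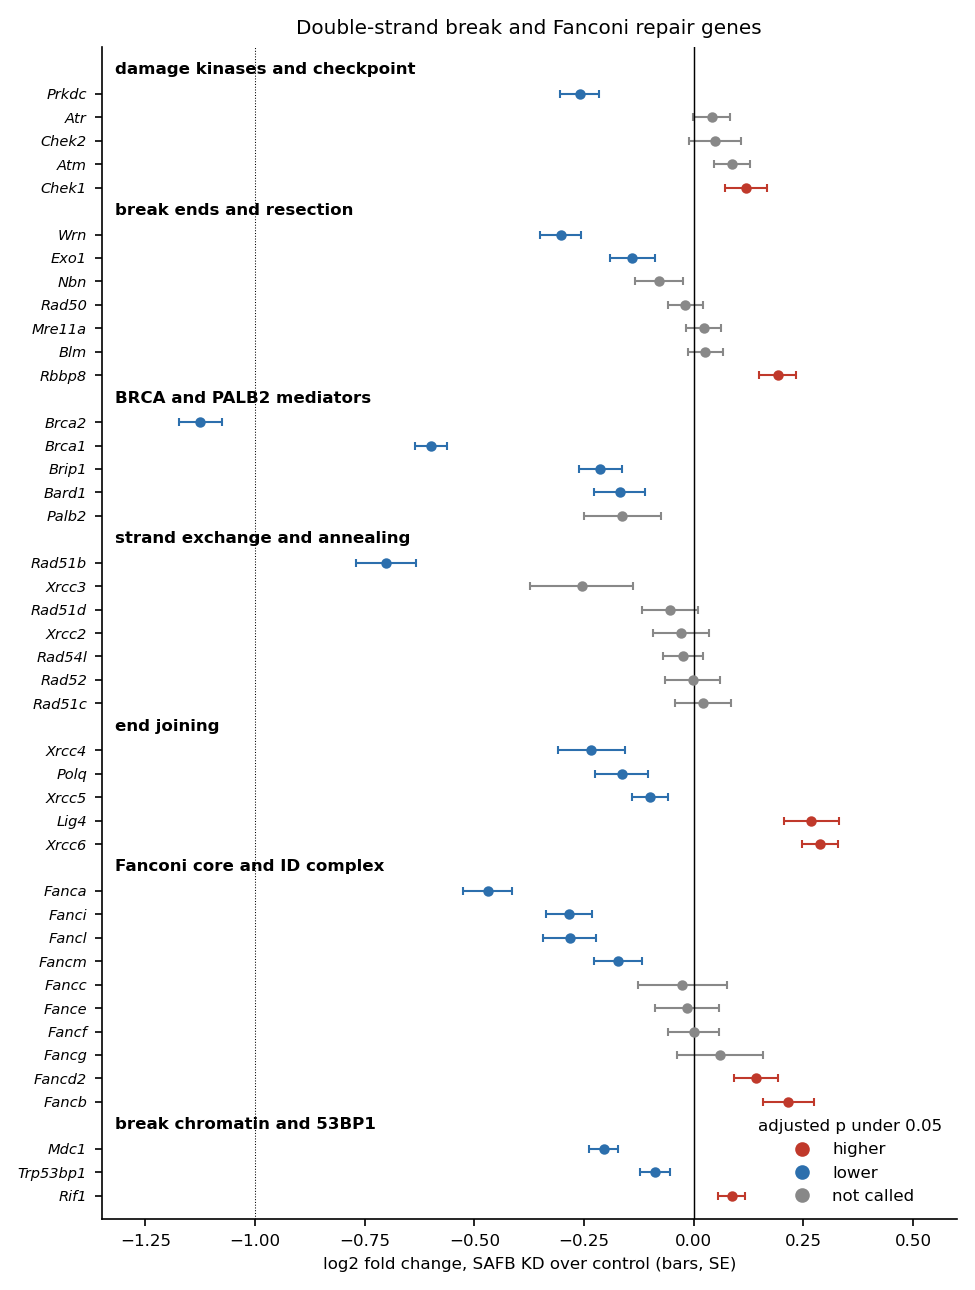
Log2 fold change of each of the 42 repair genes, SAFB KD over control, by role, with bars for the SE and a dotted line at a fall of 2-fold. Red points were called higher (7 genes), blue points lower (17 genes) and grey points not called (18 genes); Brca2 at -1.13, Rad51b at -0.70 and Brca1 at -0.60 stand furthest to the left.

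Genes of the BRCA and PALB2 group, which act in homologous recombination, were mostly lower. The 5 genes all had SAFB KD libraries below control libraries, beside 23.7% of all tested genes. Of the 5, 4 were called lower, beside 25.7% of all tested protein-coding genes. Together they summed to 149.9, 147.3 and 149.9 CPM in SAFB KD, against 218.8, 220.7 and 218.6 CPM in control. Most of the fall in this sum came from Brca1 and Brca2. No other role group had every member on the same side, but the roles were chosen with earlier results of these data known.

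Brca2 (chromosome 5, 150522630 to 150570329, plus strand, GRCm38), whose product acts on the resected, single-stranded DNA, had the largest difference of the 42 genes. It stood at 25.0, 23.5 and 23.6 CPM in SAFB KD, against 53.4, 53.1 and 50.5 CPM in control. Every SAFB KD library therefore held less than every control library, at a fold of 2.18 (log2 fold change -1.13, SE 0.048, adjusted p = 1.09e-21, edgeR quasi-likelihood test). Brca1 (chromosome 11, 101488764 to 101551955, minus strand) encodes a ubiquitin ligase that favours resection and recombination. It stood at 65.0, 63.7 and 66.5 CPM in SAFB KD, against 95.6, 98.1 and 102.4 CPM in control, a log2 fold change of -0.60 (SE 0.036, adjusted p = 4.89e-17). Its groups did not overlap either.

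The partners of the BRCA proteins showed smaller differences. Brip1 (chromosome 11, 86058138 to 86201193, minus strand), a helicase that binds BRCA1, stood at 31.6, 31.0 and 31.9 CPM in SAFB KD, against 37.5, 36.8 and 35.2 CPM in control (log2 fold change -0.21, SE 0.049, adjusted p = 0.000381). Bard1, the obligate partner of BRCA1 in its ubiquitin ligase, averaged 20.6 ± 0.448 CPM in SAFB KD and 23.1 ± 0.917 CPM in control (SD, n = 3 each), a log2 fold change of -0.17 (adjusted p = 0.0161). The call of Bard1 was lost without control 2 (adjusted p = 0.0699) or without SAFB KD 3 (adjusted p = 0.0736). Palb2, which bridges BRCA1 and BRCA2, averaged 7.79 ± 0.540 CPM in SAFB KD and 8.73 ± 0.257 CPM in control and was not called (log2 fold change -0.16, adjusted p = 0.139).

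Brca2 and Brca1 carry the longest coding exons of the 42 genes. The study links SAFB binding to purine-rich RNA and to long exons, so the exon in each gene was examined, a choice made after the values had been seen. In the study, certain giant coding exons were spliced in more after SAFB depletion. The counts here are of whole genes, so the use of these exons was not measured. Brca2 exon 11 spans 4809 coding bases and holds 9 copies of the motif GAAGAA on the transcribed strand, and Brca1 exon 10 spans 3315 coding bases with 3 copies. These are 1.87 copies per kilobase for Brca2 and 0.90 for Brca1. The highest density among the longest coding exons of the 42 genes was 5.40, in Trp53bp1, which was lower by only 1.06-fold. Rif1 carries an exon of 3090 coding bases (exon 30) with 7 copies, or 2.27 per kilobase. Rif1 was called higher, but by only 1.06-fold, and it kept that call in 9 of 13 alternatives. For these 3 genes the stretch of 150 bases richest in GAAGAA is shown 5′ to 3′ on the strand of the gene. They were picked to compare exons of genes called in opposite directions. GAAGAA is in capitals and the bases come from GRCm38.
Brca2 exon 11, chr5:150539313-150539462, plus strand, with 2 copies: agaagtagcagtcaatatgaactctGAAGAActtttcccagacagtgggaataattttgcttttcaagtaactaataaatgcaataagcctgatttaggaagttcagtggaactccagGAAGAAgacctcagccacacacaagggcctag
Brca1 exon 10, chr11:101525261-101525410, minus strand, with 2 copies: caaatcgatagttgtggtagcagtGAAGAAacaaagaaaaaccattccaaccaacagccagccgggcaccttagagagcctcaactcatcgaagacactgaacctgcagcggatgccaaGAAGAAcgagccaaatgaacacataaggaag
Rif1 exon 30, chr2:52111161-52111310, plus strand, with 3 copies: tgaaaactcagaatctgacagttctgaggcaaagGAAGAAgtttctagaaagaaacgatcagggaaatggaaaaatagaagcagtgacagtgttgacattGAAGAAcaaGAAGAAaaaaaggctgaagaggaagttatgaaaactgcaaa
Of 86779 coding windows of 150 bases in all tested coding genes, read on the strand of the gene, 13.5% held at least 1 copy, 2.30% at least 2 and 0.539% at least 3. A match describes the letters only, and the stretch richest in the motif was picked from each exon.

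Repair genes with long coding exons were called in both directions, but they are too few to show whether exon length went with a direction. Of the 5 members whose longest coding exon reaches 2000 bases, Brca2, Brca1 and Polq were lower (60.0%), and Rif1 and Lig4 were higher. Among the 510 coding genes of that class in the whole data, 53.9% were lower and 11.8% higher. Rif1 was higher by only 1.06-fold and kept its call in 9 of 13 alternatives. Polq kept its call in 11 of 13, and Brca2, Brca1 and Lig4 kept theirs in all 13. Polq exon 16 has 2981 coding bases with 4 copies of GAAGAA, and Lig4 exon 2 has 2733 with 4 copies. Across the 42 members the rank correlation of log2 fold change with the longest coding exon was 0.06 (Spearman, genes are not independent replicates), and -0.14 across 13478 coding genes. With the density of GAAGAA in that exon it was 0.13 and -0.01 over the same sets.

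Genomic span was examined in the same way. Of 7 members that span 100 kb or more, Rad51b, Xrcc4, Prkdc, Wrn and Brip1 were lower and Rbbp8 higher, and Fancc was not called. Among 1767 coding genes of that class 39.6% were lower and 18.3% higher. Of 21 members from 30 to 100 kb, which include Brca2, Brca1 and Fanca, 11 were lower (52.4%) and 3 higher (14.3%). Among 3898 coding genes of that class 30.1% were lower and 26.0% higher. Of 14 members under 30 kb, 3 were higher (Lig4, Fancb and Chek1) and 1 lower (Mdc1), beside 30.5% higher and 20.4% lower among 7841 coding genes of that class. The Spearman correlation of log2 fold change with span was -0.32 across the 42 members, -0.24 without the 2 longest genes, Rad51b (517 kb) and Xrcc4 (316 kb), and -0.14 across 13506 coding genes. These values are descriptions across genes that share the same 6 libraries.

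**Figure D2:**
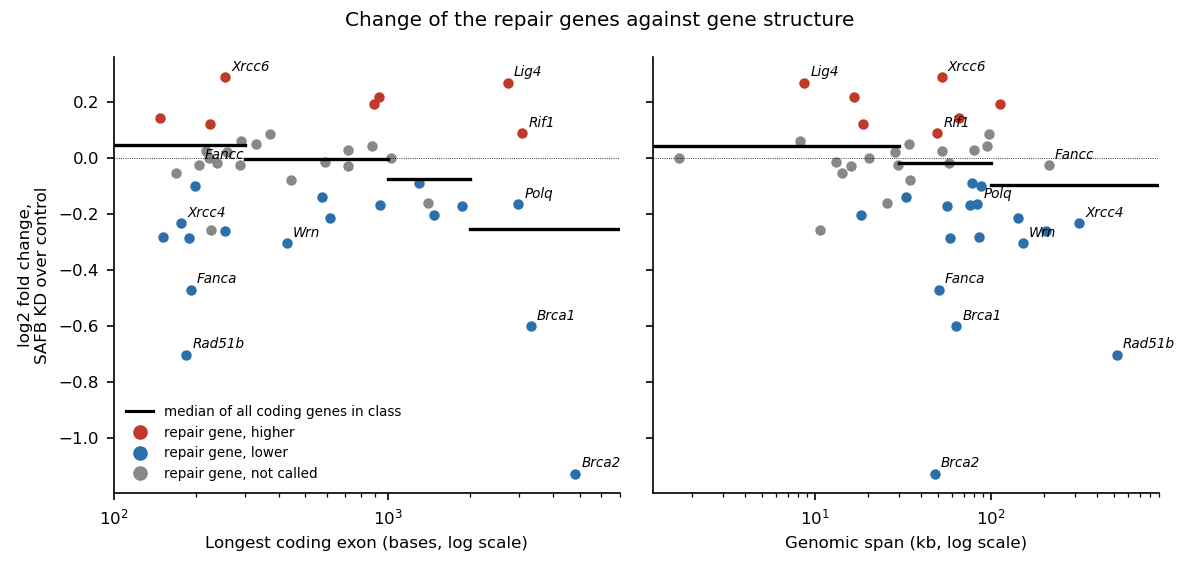
Log2 fold change of the 42 repair genes against the longest coding exon (left, bases, log scale) and the genomic span (right, kb, log scale), with black lines for the median of all tested coding genes in each class. Brca2 and Brca1 lie low at the long-exon end while Lig4 and Rif1 lie above 0 there, and Rad51b lies low at the longest span.

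Of 7 members that act in strand exchange and annealing, Rad51b was called lower and the other 6 were not called. The product of Rad51b works in homologous recombination in a complex with those of Rad51c, Rad51d and Xrcc2. Rad51b (chromosome 12, 79297282 to 79814690, plus strand) stood at 10.6, 10.5 and 10.2 CPM in SAFB KD, against 17.1, 17.0 and 16.8 CPM in control. Its groups did not overlap, and the log2 fold change was -0.70 (SE 0.068, adjusted p = 3.10e-11). For its complex partners the log2 fold changes were 0.02 (Rad51c), -0.05 (Rad51d) and -0.03 (Xrcc2), with adjusted p of 0.841, 0.549 and 0.763, and their libraries overlapped between groups. Rad52 and Rad54l, which act in annealing and in strand exchange, had log2 fold changes of 0.00 and -0.02 (adjusted p = 0.982 and 0.722). Xrcc3, whose product pairs with that of Rad51c, averaged 4.05 ± 0.316 CPM in SAFB KD and 4.84 ± 0.391 CPM in control (log2 fold change -0.26, adjusted p = 0.0776). It had the fewest reads of the 42 genes, 1094 over the 6 libraries, and was called without control 1 (adjusted p = 0.0368) or with library size scaling alone (adjusted p = 0.0384).

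**Figure D3:**
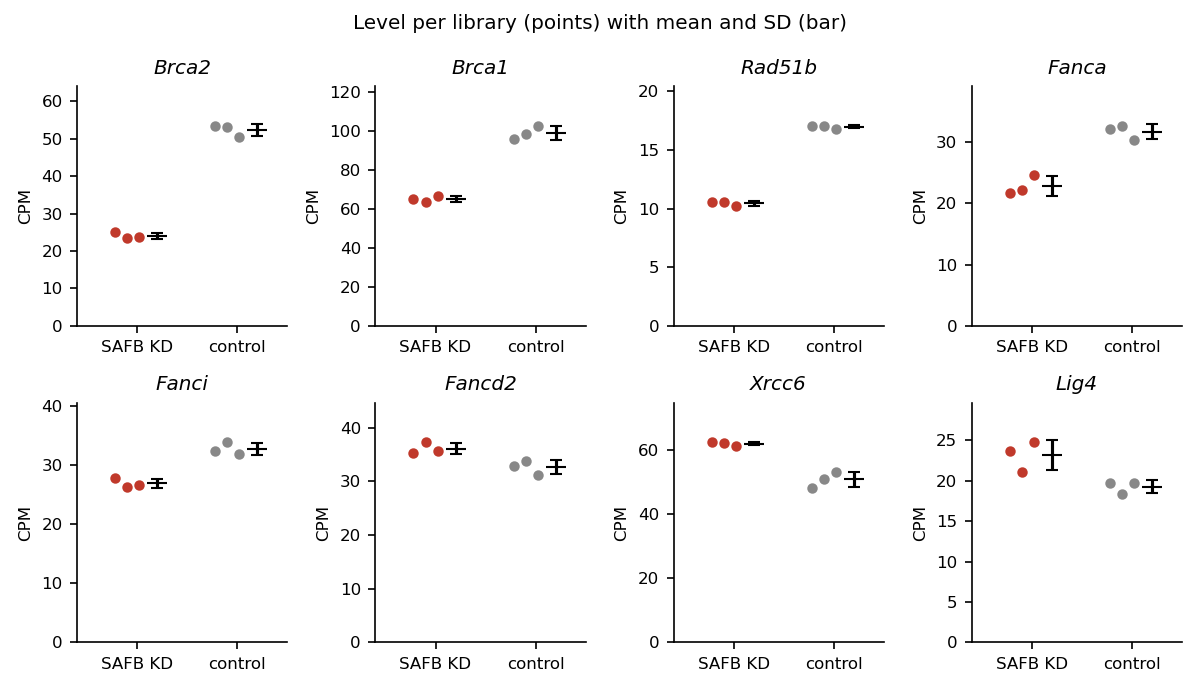
Level of 8 repair genes in each library (CPM, linear axes from 0), SAFB KD in red on the left and control in grey on the right, with the mean and SD of 3 libraries beside the points. The groups are separate in all 8 panels, with SAFB KD below control for Brca2, Brca1, Rad51b, Fanca and Fanci and above control for Fancd2, Xrcc6 and Lig4.

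All 5 end-joining genes were called, 2 higher and 3 lower, beside 27.6% higher and 25.7% lower among all tested protein-coding genes. The lower calls of Xrcc5, Xrcc4 and Polq held in only 8, 10 and 11 of 13 alternatives. Xrcc6 (chromosome 15, 81987835 to 82040085, plus strand) encodes Ku70, and it stood at 62.4, 62.3 and 61.3 CPM in SAFB KD, against 48.3, 51.0 and 53.2 CPM in control (log2 fold change 0.29, SE 0.042, adjusted p = 2.33e-07). Lig4 (chromosome 8, 9969049 to 9977686, minus strand), the ligase that seals the ends, stood at 23.7, 21.1 and 24.7 CPM in SAFB KD, against 19.8, 18.3 and 19.7 CPM in control (log2 fold change 0.27, SE 0.063, adjusted p = 0.000492). Both genes were higher in every SAFB KD library than in any control library.

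The binding partners of these proteins went the other way. Xrcc4 (chromosome 13, 89774027 to 90089608, minus strand), the scaffold of LIG4, stood at 12.2, 12.4 and 14.4 CPM in SAFB KD, against 13.7, 16.0 and 16.6 CPM in control (log2 fold change -0.23, SE 0.076, adjusted p = 0.0118). SAFB KD 3 overlapped with control 1, and the call was lost without control 2 (adjusted p = 0.0548), SAFB KD 1 (adjusted p = 0.0635) or SAFB KD 2 (adjusted p = 0.0675). Xrcc5, which encodes Ku80, averaged 52.6 ± 1.73 CPM in SAFB KD and 56.4 ± 0.336 CPM in control (SD, n = 3 each), at an adjusted p of 0.0469. That call was lost without control 2 (adjusted p = 0.0919), SAFB KD 2 (adjusted p = 0.214) or SAFB KD 3 (adjusted p = 0.0654), and with no filter on low counts (adjusted p = 0.0882). Polq, the polymerase of the alternative end-joining route, averaged 20.2 ± 1.29 CPM in SAFB KD and 22.6 ± 0.864 CPM in control (log2 fold change -0.16, adjusted p = 0.0252), and its call was lost without control 1 (adjusted p = 0.0943) or SAFB KD 2 (adjusted p = 0.183).

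Because these proteins act as pairs, the ratio of read counts between partner genes was taken within each library, which removes the scaling. The pairs were chosen after their values had been seen and are given as a description, and a ratio of counts compares libraries rather than the levels of the 2 genes. Xrcc6 over Xrcc5 was 1.16, 1.23 and 1.15 in SAFB KD, against 0.859, 0.899 and 0.948 in control. Lig4 over Xrcc4 was 1.94, 1.70 and 1.72 in SAFB KD, against 1.45, 1.14 and 1.19 in control. Both ratios were higher in every SAFB KD library. Brca1 over Bard1 was 3.10, 3.08 and 3.31 in SAFB KD, against 4.12, 4.11 and 4.64 in control, and Brca2 over Palb2 was 3.44, 2.81 and 3.05 in SAFB KD, against 5.96, 6.06 and 5.97 in control. Both of these ratios were lower in every SAFB KD library.

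**Figure D4:**
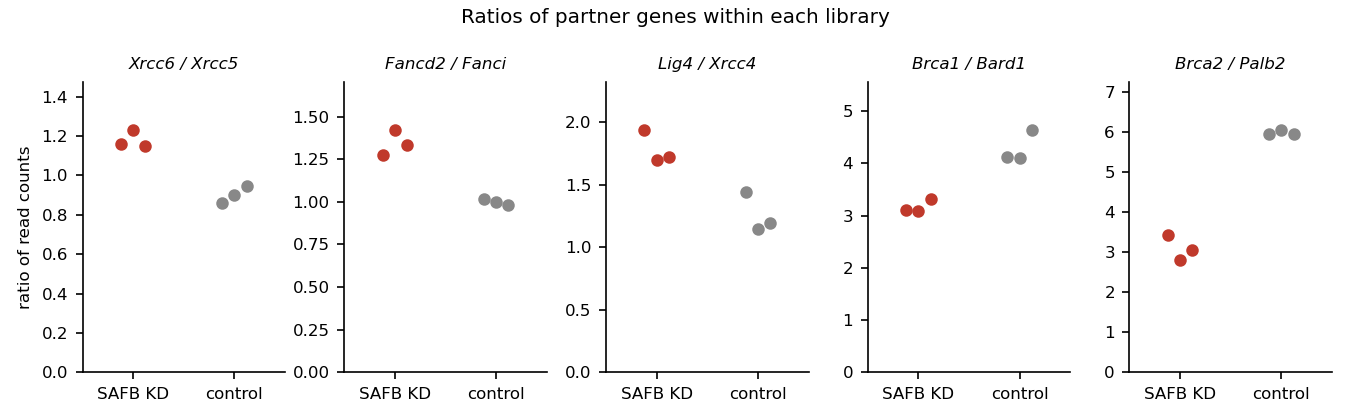
Ratio of read counts of 5 pairs of genes whose proteins act together, 1 point for each library, SAFB KD in red on the left and control in grey on the right, with axes from 0. SAFB KD lies above control for Xrcc6 over Xrcc5, Fancd2 over Fanci and Lig4 over Xrcc4, and below control for Brca1 over Bard1 and Brca2 over Palb2, with no overlap in any pair.

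Of the 10 Fanconi genes, 4 were lower and 2 higher. The shares among all tested protein-coding genes were 25.7% lower and 27.6% higher, and 10 genes are too few to set apart from these. Fanca (chromosome 8, 123268300 to 123318576, minus strand), a subunit of the core complex, had the largest difference of the 10, at 21.7, 22.1 and 24.7 CPM in SAFB KD, against 32.1, 32.7 and 30.3 CPM in control (log2 fold change -0.47, SE 0.056, adjusted p = 4.62e-09). Fancl (chromosome 11, 26386135 to 26471876, plus strand), the ubiquitin ligase of the core complex, stood at 17.9, 18.1 and 17.6 CPM in SAFB KD, against 20.3, 22.7 and 22.1 CPM in control (log2 fold change -0.28, SE 0.061, adjusted p = 0.000179). Neither gene overlapped between groups. Fancm, a translocase that anchors the core complex on DNA, averaged 29.9 ± 2.30 CPM in SAFB KD and 33.7 ± 1.77 CPM in control (log2 fold change -0.17, adjusted p = 0.00962), and its call was lost without SAFB KD 2 (adjusted p = 0.124). Fancb, whose product joins FANCL in a module of the core complex, was higher, at 27.4 ± 0.0687 CPM in SAFB KD and 23.7 ± 2.09 CPM in control (log2 fold change 0.22, adjusted p = 0.00248), with the call lost without control 1 (adjusted p = 0.0626).

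The genes of the FANCD2 and FANCI pair, which the core complex marks with ubiquitin, parted. Fanci (chromosome 7, 79391929 to 79450264, plus strand) stood at 27.7, 26.2 and 26.7 CPM in SAFB KD, against 32.5, 33.8 and 31.8 CPM in control (log2 fold change -0.28, SE 0.052, adjusted p = 1.43e-05). Fancd2 averaged 36.1 ± 1.04 CPM in SAFB KD and 32.7 ± 1.32 CPM in control (log2 fold change 0.14, adjusted p = 0.0182). The ratio of Fancd2 to Fanci counts was 1.27, 1.42 and 1.33 in SAFB KD, against 1.01, 1.0 and 0.981 in control. Fancd2 was not called without control 3 (adjusted p = 0.133), without SAFB KD 2 (adjusted p = 0.104) or with scaling by library size alone (adjusted p = 0.104). The other core subunits Fancc, Fance, Fancf and Fancg had log2 fold changes of -0.03 to 0.06 and were not called.

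Among the 7 genes that process break ends, Wrn and Exo1 were lower and Rbbp8 was higher. Wrn (chromosome 8, 33234384 to 33385527, minus strand), the RecQ helicase lost in Werner syndrome, stood at 42.4, 41.0 and 38.0 CPM in SAFB KD, against 51.8, 49.9 and 47.4 CPM in control (log2 fold change -0.30, SE 0.047, adjusted p = 9.75e-07). Exo1 (chromosome 1, 175880581 to 175913489, plus strand), the nuclease of long-range resection, stood at 29.7, 28.1 and 30.5 CPM in SAFB KD, against 32.9, 32.5 and 31.9 CPM in control (log2 fold change -0.14, SE 0.051, adjusted p = 0.0243), and its call was lost without SAFB KD 2 (adjusted p = 0.138). Rbbp8 encodes CtIP, which starts resection, and it stood at 61.4, 61.6 and 67.3 CPM in SAFB KD, against 53.4, 56.8 and 57.0 CPM in control (log2 fold change 0.19, SE 0.042, adjusted p = 0.000252). The groups did not overlap for any of the 3. The sensor of broken ends, made of the products of Mre11a, Rad50 and Nbn, had log2 fold changes of 0.02, -0.02 and -0.08 (adjusted p = 0.705, 0.751 and 0.275), and the RecQ helicase gene Blm 0.03 (adjusted p = 0.654).

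Of the 5 kinase genes, Prkdc was lower and Chek1 higher. Prkdc (chromosome 16, 15637866 to 15842235, plus strand) encodes the catalytic subunit that Ku recruits to broken ends, and it stood at 38.3, 38.7 and 39.6 CPM in SAFB KD, against 47.8, 46.5 and 45.3 CPM in control (log2 fold change -0.26, SE 0.045, adjusted p = 5.97e-06). Chek1 (chromosome 9, 36708482 to 36727065, minus strand), the checkpoint kinase that ATR activates, stood at 47.5, 45.0 and 51.3 CPM in SAFB KD, against 42.3, 45.4 and 45.0 CPM in control (log2 fold change 0.12, SE 0.047, adjusted p = 0.0415). Its groups overlapped, and it kept its call in only 4 of 13 alternatives. Chek1 lost it without control 1, control 2 or control 3 (adjusted p = 0.220, 0.0735 and 0.0593), without SAFB KD 1 or SAFB KD 3 (adjusted p = 0.0628 and 0.388), and by DESeq2 (adjusted p = 0.109). Atm, Atr and Chek2, the other kinases of the damage response, were not called, with log2 fold changes of 0.09, 0.04 and 0.05, and Atm was called without SAFB KD 2 (log2 fold change 0.12, adjusted p = 0.0441).

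The 3 genes whose proteins act on chromatin around a break were all called, Mdc1 and Trp53bp1 lower and Rif1 higher. Among all tested protein-coding genes 25.7% were lower and 27.6% higher. Mdc1 (chromosome 17, 35841515 to 35859670, plus strand), which binds phosphorylated H2AX, stood at 120.0, 117.8 and 118.1 CPM in SAFB KD, against 138.0, 133.7 and 138.6 CPM in control (log2 fold change -0.21, SE 0.032, adjusted p = 1.24e-06). Trp53bp1 (chromosome 2, 121193281 to 121271407, minus strand), which restrains resection, stood at 94.5, 96.1 and 92.7 CPM in SAFB KD, against 101.6, 99.9 and 99.6 CPM in control (log2 fold change -0.09, SE 0.034, adjusted p = 0.0326). Rif1 (chromosome 2, 52072832 to 52122383, plus strand), the effector that 53BP1 recruits, stood at 266.3, 266.9 and 263.1 CPM in SAFB KD, against 247.4, 244.5 and 258.1 CPM in control (log2 fold change 0.09, SE 0.030, adjusted p = 0.0193). The groups were separate for all 3, but Trp53bp1 and Rif1 differed by only 1.06-fold each. Trp53bp1 lost its call without control 1 (adjusted p = 0.0517), SAFB KD 1 (adjusted p = 0.0515) or SAFB KD 3 (adjusted p = 0.137), and with no filter on low counts (adjusted p = 0.0710). Rif1 lost it without control 1 (adjusted p = 0.0568), control 2 (adjusted p = 0.226) or SAFB KD 2 (adjusted p = 0.0719), and with library size scaling (adjusted p = 0.242).

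Per kilobase of exon (RPKM), Rif1 was the most abundant of the 42 genes in the mean of all libraries, at 25.3 RPKM in SAFB KD and 23.8 RPKM in control. Fancc was the least abundant, at 0.807 RPKM in SAFB KD and 0.828 RPKM in control. Brca2 stood at 1.76 RPKM in SAFB KD and 3.84 RPKM in control. It ranked 36 of 42 in that mean, a place that its lower level in SAFB KD helped to set.

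Reads on a repair gene could be touched by genes that overlap it. Exon bases shared with another gene on the same strand made up 0.753% of Atr and none of the other 41 members. Of 12 genes that lie within a member on its own strand, 4 were tested. Only Gm16907, a noncoding gene inside Fancc, was called, on 0, 1 and 0 reads in SAFB KD and 5, 10 and 9 reads in control. Of 19 genes within a member on the opposite strand 3 were tested, and Desi1, inside Xrcc6, was lower at 46.4 CPM in SAFB KD and 67.5 CPM in control (log2 fold change -0.54, adjusted p = 2.38e-14), while Xrcc6 itself was higher.

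Genes that partly overlap a member on the opposite strand went either way. Of 13 tested, 3 were higher and 4 lower. Klc1 at Xrcc3, Vrk2 at Fancl and Polg at Fanci had log2 fold changes of 0.13, 0.33 and 0.19. Gas2 at Fancf, Tubgcp4 at Trp53bp1 and Tmem167 at Xrcc4 had log2 fold changes of -0.23, -0.12 and -0.12. Gm4117, an antisense transcript at Xrcc4, had 11, 10 and 20 reads in SAFB KD and 100, 94 and 57 reads in control. Fancl and Fanci were thus lower beside a neighbour that was higher, and Xrcc4 and Trp53bp1 were lower beside neighbours that were lower too.

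Other genes of the same pathways moved in both directions. Of 65 further genes of double-strand break and Fanconi repair, 18 were lower (27.7%) and 13 higher (20%), with a median log2 fold change of 0.00. Among all tested protein-coding genes 25.7% were lower and 27.6% higher, so the lower share of this list was near that of coding genes. Those with the smallest adjusted p were Smc6 (-0.57), a subunit of the SMC5/6 complex, Babam1 (-0.43) and Uimc1 (0.38), both of the BRCA1-A complex, and Rmi2 (-0.65), a partner of BLM. Of 33 genes of mismatch, base and nucleotide excision repair, 9 were higher (27.3%) and 7 lower (21.2%), with a median of 0.04. Rad23b (0.41) and Polb (0.44) were higher and Msh6 (-0.28) and Cetn2 (-0.31) lower.

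Genes of the cell cycle were followed because many repair genes are transcribed in S and G2 phase. Of 30 replication and S phase genes, 10 were lower (33.3%, beside 25.7% of all tested protein-coding genes) and 4 higher (13.3%, beside 27.6%). The median was 0.01, and 17 of the 30 had a positive log2 fold change. The 4 with the smallest adjusted p were all lower, namely Tk1 (-0.41), Uhrf1 (-0.30), Fen1 (-0.36) and Gins1 (-0.45). Without SAFB KD 2 the higher count of that list was 7. Of 22 mitotic genes 6 were lower (27.3%) and 8 higher (36.4%), with a median of 0.06. Mki67, a marker of dividing cells, averaged 387.9 ± 10.8 CPM in SAFB KD and 596.6 ± 10.8 CPM in control (log2 fold change -0.62, adjusted p = 2.63e-20). Cenpf (-0.46), Kif11 (-0.28) and Foxm1 (-0.28) were lower too, and with Mki67 they had the smallest adjusted p of that list. Of the 22 mitotic genes 13 had a positive log2 fold change. The part of these cell cycle genes in the differences of the repair genes was not tested.

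Targets of p53 were mostly higher, with 18 of 21 called higher (85.7%, beside 27.6% of all tested protein-coding genes). In that list 1 was called lower, and the median log2 fold change was 0.40. Plk2 (0.74), Mdm2 (0.63), Bax (0.66) and Eda2r (0.63) had the smallest adjusted p, and Mdm2, which encodes the ubiquitin ligase of p53, averaged 133.9 ± 2.02 CPM in SAFB KD and 86.5 ± 0.668 CPM in control (SD, n = 3 each). The single lower call of that list was lost without SAFB KD 3, which left 0. All counts here come from lists that are small beside the 19452 genes tested, and no list was tested as a set.

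**Figure D5:**
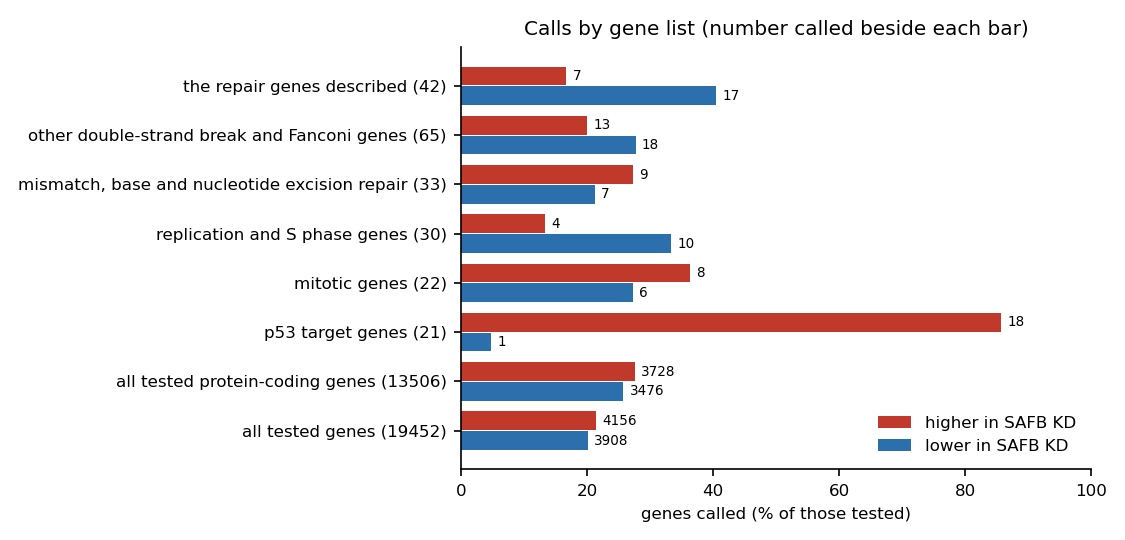
Share of the tested genes of each list called higher (red, upper bar) or lower (blue, lower bar) in SAFB KD, in percent, with the number called beside each bar and the number tested after each name. The 42 repair genes had 40.5% lower and 16.7% higher, and the p53 targets had 18 of 21 higher. The 13506 tested protein-coding genes had 25.7% lower and 27.6% higher, and all 19452 tested genes had 20.1% lower and 21.4% higher.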

How the data were processed

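Poly(A)+ RNA of 6 libraries was sequenced, 3 of SAFB KD and 3 of control, with groups and replicate numbers taken from the sample titles. The authors trimmed the reads, aligned them to GRCm38 with STAR 2.7.9a and deposited raw read counts per gene, unscaled and with 1 library per file. Their methods describe reverse-stranded gene counts, and it is inferred that the single deposited column holds these. Also named in their processing notes are deepTools 3.5.1 and the build name mm10. Counting of this kind keeps uniquely aligned reads over the exons of 1 gene, so introns, single exons and alternative transcript ends were not analysed here.

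Identifiers were matched without version to a GENCODE annotation of GRCm38 (37 of 54532 did not match), which also gave coordinates and exons. Genes with fewer than 10 reads over all libraries were removed (35080, of which 26546 had none), leaving 19452. Counts were scaled by TMM and compared between groups, without covariates, by the edgeR quasi-likelihood test (edgeR 4.0.16, R 4.3.3). P values were two-sided, Benjamini-Hochberg adjustment covered every tested gene, and calls needed an adjusted p under 0.05. The test against a fold of 2 was glmTreat with a log2 threshold of 1. The SE of a log2 fold change was set so that their ratio matched the quasi-likelihood test. Levels are CPM on TMM-scaled library sizes, and RPKM divides these by exon length in kilobases. Plots were made in Python 3.11.15 with matplotlib 3.10.9.

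The depth was 33323307 to 53441129 counts in a library, with a biological coefficient of variation of 3.49%. No replicates were identical, and their counts varied beyond sampling noise, with chi-square over its degrees of freedom at 4.18 to 21.7 (highest for control 1 and control 3).

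Members, lists and roles were chosen with earlier results of these data known. All members could be named. Values in every library were given for up to 3 called genes of each role with the largest absolute log2 fold change. Other lists were named by up to 4 genes with the smallest adjusted p, along with the 3 knockdown targets and called genes inside or overlapping members. Genes of the long-exon comparison and partner pairs were chosen after their values were seen. Alternatives were DESeq2 1.42.0, limma 3.58.1 with voom, other scalings and filters, a replicate block, and each library left out in turn.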

Additional observations from a re-analysis of the deposited data

How the results depend on the processing

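Over 13 alternatives 18 to 24 of the 42 repair genes were called. In all of them 13 kept their call, of which 10 were lower (Brca1, Brca2, Brip1, Fanca, Fanci, Fancl, Mdc1, Prkdc, Rad51b and Wrn) and 3 higher (Rbbp8, Xrcc6 and Lig4). The other 11 lost it in at least 1, and 0 called members changed sign. With scaling by library size alone 4 members were higher and 1 was beyond 2-fold lower, and 2 p53 targets were lower, as also with the filter filterByExpr. Leaving out 1 library gave 4 to 6 members higher, 0 to 1 beyond 2-fold lower, 4 to 7 replication genes higher and 0 to 1 p53 targets lower. Counting every tested gene that overlaps a member by at least 1 base gave 3 higher and 6 lower, against 0 and 2 within members.

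The replicate block left 23 members called, 7 higher and 16 lower, with Xrcc5 lost (adjusted p = 0.0502), and changed no other call of a member. Same-numbered libraries correlated at 0.052, 0.01 and -0.006, so the numbers were not taken as pairs.

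Sign changes occurred 19 times, in 9 members that were not called. Library size scaling gave log2 fold changes of -0.0173 for Mre11a, -0.0139 for Blm and -0.0196 for Rad51c. Dropping the low-count filter gave 0.00209 for Rad52 and 0.00433 for Fancf, limma gave 0.000127 for Rad52, and the replicate block gave 0.00652 for Fancf. Leaving out 1 library gave -0.0462 to 0.0242 for Rad50, -0.0298 to 0.0376 for Rad51c, -0.104 to 0.0344 for Xrcc2, -0.0430 to 0.0145 for Rad52, -0.152 to 0.0251 for Fancc, -0.0994 to 0.0576 for Fance and -0.0524 to 0.0307 for Fancf. The correlation with span was -0.317 over all members, -0.237 without the 2 longest and -0.143 over all coding genes. The cause of these shifts was not tested. Depth limits the lowest genes most, since Xrcc3 had 1094 reads over 6 libraries.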
